A study of Homo sapiens with 18 samples.

Results

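The genes described here are 36 listed genes of glycolysis, glucose uptake and the response to low oxygen, chosen by name from the gene symbols of an Illumina Human HT-12 v4 BeadChip, an array that reads messenger RNA with bead-bound probes. The annotation used here named 33 of them. Of these, 31 were detected, meaning a detection p-value under 0.01 on at least 3 of 18 arrays, out of 20046 genes named and 11600 genes detected in all. The detected members were both glucose transporters on the list, all 17 glycolytic enzymes, 3 of 6 regulators and 9 of 11 hypoxia targets. PDK1, a kinase that inhibits the pyruvate dehydrogenase complex, was not detected on any array, and EGLN3, an oxygen-sensing prolyl hydroxylase, was detected on 1. The other 3 listed genes were not analysed here.

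The arrays held RNA of 6 human pancreatic cancer cell lines. SU8686, MiaPaCa2 and Panc1 were labelled resistant to dasatinib, and Panc1005, Panc0403 and Panc0504 were labelled sensitive to it. Dasatinib inhibits SRC family and ABL kinases, and the study asked how resistant and sensitive lines differ in gene expression. The labels name no treatment with the drug and no oxygen or glucose level. Each line had 3 replicates described as biological, so a response group was 3 lines, and a difference between the groups was also a difference between those particular lines. By the array codes, slide 1 held Panc0403 and Panc0504, slide 2 held SU8686 and Panc1005, and slide 3 held MiaPaCa2 and Panc1, so only slide 2 held both a resistant and a sensitive line.

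Replicate 2 stood apart from replicates 1 and 3 in every line. Over all probes, replicates 1 and 3 of a line correlated at 0.994 to 0.996, and replicate 2 correlated with them at 0.851 to 0.897. On replicate 2 the 2 lines that shared a slide correlated at 0.990 on slide 1, 0.915 on slide 2 and 0.991 on slide 3. On replicates 1 and 3 the same pairs correlated at 0.964 to 0.971, 0.972 to 0.974 and 0.982 to 0.983. The lines of slides 1 and 3 were thus closer to each other on replicate 2, and those of slide 2 were less close. Replicate 2 is therefore given apart from replicates 1 and 3 throughout, and its 6 arrays are not 6 clearly separate profiles. Median raw intensity lay between 110.4 and 135.2 on the 18 arrays, and at most 34.98% of probes were detected on an array. As a check of the label, the epithelial keratins KRT8, KRT18 and KRT19 were detected on all 18 arrays. KRT7, EPCAM and CDH1, further epithelial markers, were not detected on replicates 1 and 3 of MiaPaCa2 and Panc1 and were detected on replicate 2 of both. Of the blood cell markers, PTPRC and CD3E were detected on none of the 18 arrays, CD14 on all of them (9.85 on replicate 2 of SU8686 and 6.28 to 7.76 on that of the other lines), and LYZ on 2 of 6 replicate 2 arrays and 8 of 12 others. Of the endothelial markers, VWF and KDR were detected on none, CDH5 on 4 of 6 replicate 2 arrays and 0 of 12 others, and PECAM1 on 2 and 1, with 10.07 on replicate 2 of SU8686.

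Genes often lost in pancreatic cancer also differed between replicate 2 and replicates 1 and 3 of the same line. CDKN2A, a cell cycle inhibitor, was not detected on any of the 6 replicate 2 arrays, against line means of 9.77 to 10.74 on replicates 1 and 3 of SU8686, Panc1005, Panc0403 and Panc0504. MTAP, its neighbour on the chromosome, was not detected on replicate 2 of SU8686 (5.74) and Panc1005 (5.66), against means of 9.40 and 9.80 on replicates 1 and 3. SMAD4, which carries TGF-beta signals to the nucleus, read 4.67 in Panc0403 and 4.65 in Panc0504 on replicate 2, below detection, against means of 9.26 and 9.45 on replicates 1 and 3. The mesenchymal cadherin CDH2 was detected on all 6 replicate 2 arrays, at 8.03 to 11.23, and on 0 of the 12 others. The other mesenchymal markers did not follow it. VIM was detected on every array and lay higher on replicate 2 in 3 lines and lower in 3, and ZEB1 and FN1 were detected on none. Of the fibroblast markers, COL1A2 was detected on 0 of 6 replicate 2 arrays and 8 of 12 others, THY1 on 4 and 0, LUM on 3 and 0 and COL1A1 on 4 and 4. PDGFRB was detected on none and DCN on at most 1. Whether the replicate 2 arrays hold the lines and cultures their labels name was not tested, so each replicate 2 value below is that of an array as labelled.

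Glycolysis splits glucose into pyruvate in a fixed chain of enzymes, and lactate dehydrogenase then turns pyruvate into lactate, which lets the chain run on without oxygen. When oxygen is low, the hypoxia-inducible factors HIF1A and EPAS1 escape degradation, pair with ARNT and switch on genes that carry a short response element, among them glucose transporters, most glycolytic enzymes and genes of vessel growth, acid balance and mitochondrial turnover. Pancreatic tumours are known for poor perfusion and for heavy use of glucose. All values below are normalized log2 intensities, on which a difference of 1 is a 2-fold difference. Levels are compared between arrays within a gene and never between genes, since each probe has its own brightness.

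**Figure D1:**
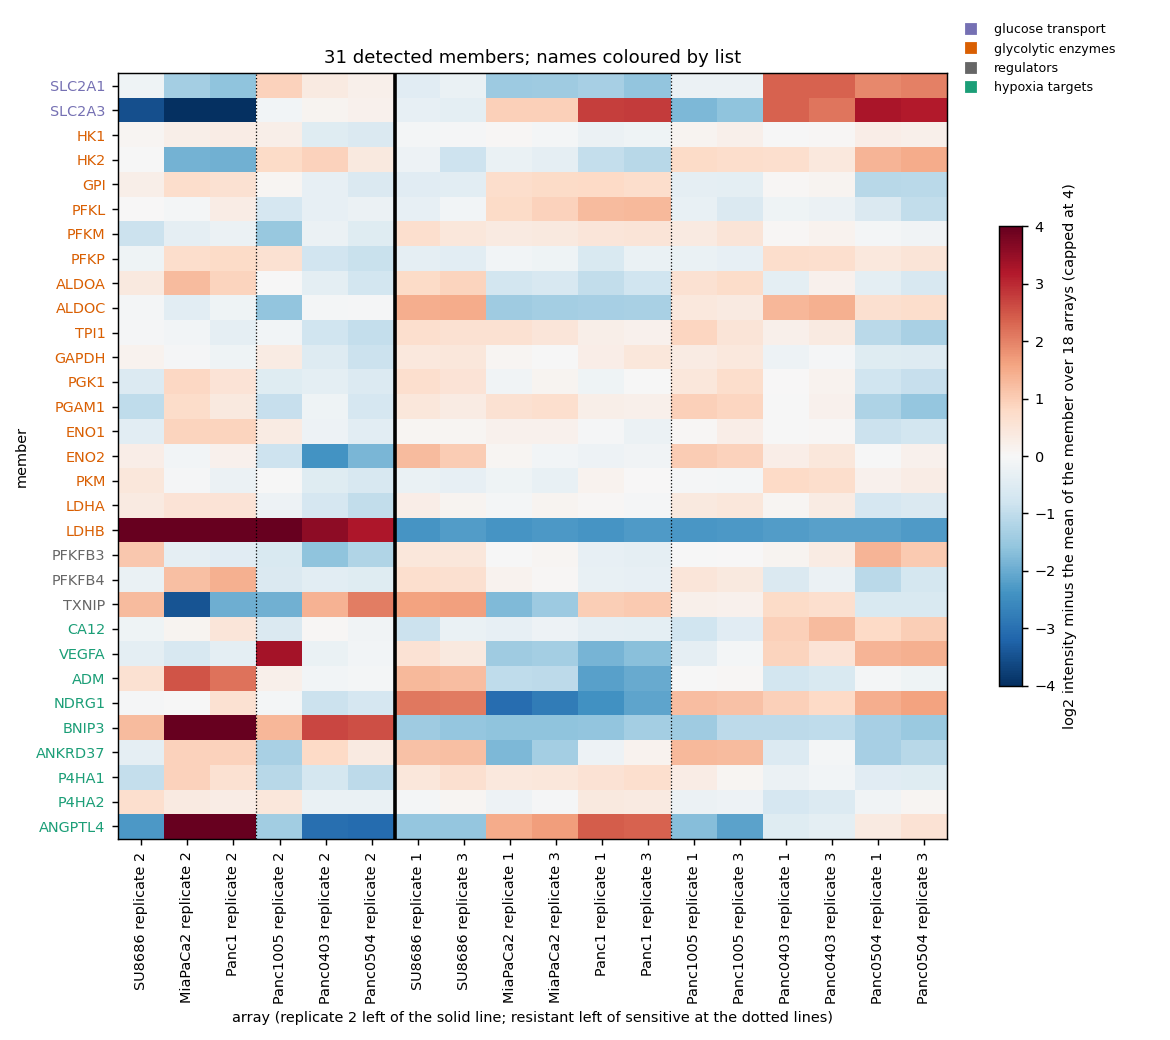
Normalized log2 intensity of the 31 detected members (down) on the 18 arrays (across), each member centred on its own mean over the arrays and capped at 4 on either side. Replicate 2 of each line is left of the solid line, and LDHB and BNIP3 are high there in all 6 lines.

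Glucose enters the cell through facilitative transporters, of which SLC2A1 is the widespread basal form and SLC2A3 a high-affinity form best known from neurons. SLC2A1 on replicates 1 and 3 read 10.79 and 10.998 in SU8686, 9.79 and 9.82 in MiaPaCa2 and 9.93 and 9.67 in Panc1, compared with 11.01 and 11.02 in Panc1005, 13.62 and 13.61 in Panc0403 and 13.17 and 13.27 in Panc0504. Every array of the 2 sensitive lines on slide 1 lay above every other array, and Panc1005 lay just above SU8686. On replicate 2 it read 11.07 in SU8686, 9.88 in MiaPaCa2 and 9.64 in Panc1, compared with 12.17 in Panc1005, 11.63 in Panc0403 and 11.44 in Panc0504. The order of the lines thus differed between the replicates, since Panc1005 was highest on replicate 2. SLC2A1 differed between lines in 12 of the 15 line pairs on replicates 1 and 3, where a call means a limma adjusted p under 0.05 and a difference of at least 1. The share of all genes called was 2.69% to 7.41% in the 3 pairs that shared a slide. SU8686 had 28.9% called against MiaPaCa2, 27.5% against Panc1, 20.8% against Panc0403 and 27% against Panc0504. MiaPaCa2 had 26.8% against Panc1005, 31.9% against Panc0403 and 39.9% against Panc0504, and Panc1 had 29.6%, 32.7% and 37.4% against the same 3 lines. Panc1005 had 21.5% against Panc0403 and 32.3% against Panc0504. MiaPaCa2 and Panc1 lay below Panc0403 and Panc0504 by 3.61 (difference -3.61 ± 0.07 SE, limma adjusted p = 2.35e-11, n = 4 arrays of 2 lines each). The SE and p-value of this and the other line contrasts measure the spread between replicates 1 and 3 of a line, not that between lines.

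SLC2A3 varied more. On replicates 1 and 3 it read 10.05 and 9.998 in SU8686, 11.33 and 11.33 in MiaPaCa2 and 13.16 and 13.19 in Panc1, compared with 8.60 and 8.76 in Panc1005, 12.73 and 12.54 in Panc0403 and 13.65 and 13.55 in Panc0504. Panc0504 and Panc1, a sensitive and a resistant line, were the highest, and Panc1005 was the lowest. Its values on replicate 2 were 6.87 in SU8686, 4.75 in MiaPaCa2 and 5.05 in Panc1, compared with 10.29 in Panc1005, 10.49 in Panc0403 and 10.57 in Panc0504. The values of MiaPaCa2 and Panc1 were not above background there, which makes replicate 2 at least 42.8-fold lower than replicates 1 and 3 in MiaPaCa2 and at least 136-fold lower in Panc1. Such a bound sets the mean of the bright arrays against the dimmest signal that still counted as detected. SLC2A3 shares much of its sequence with SLC2A14, so the probe may read both.

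The 17 glycolytic enzymes varied between lines about as much as other genes. Over the line means of replicates 1 and 3, the range from the highest to the lowest line had a median of 1.32 over the enzymes, close to 1.30 over all 11600 genes, and 12 of the 17 (70.6%) ranged over more than 1, against 65.8% of all genes. GAPDH, the dehydrogenase that yields the first reducing equivalents of the chain, read 15.34 and 15.35 in SU8686, 14.997 and 14.88 in MiaPaCa2 and 15.18 and 15.37 in Panc1, compared with 15.23 and 15.32 in Panc1005, 14.69 and 14.85 in Panc0403 and 14.42 and 14.39 in Panc0504. LDHA, the lactate dehydrogenase subunit that favours lactate formation, read 15.09 and 14.92 in SU8686, 14.73 and 14.91 in MiaPaCa2 and 14.84 and 14.77 in Panc1, compared with 15.20 and 15.26 in Panc1005, 14.90 and 15.14 in Panc0403 and 14.13 and 14.24 in Panc0504. Both genes were lowest in Panc0504 and overlapped between resistant and sensitive lines. GAPDH, ENO1, HK1 and PFKM were called in 0 of the 15 line pairs, as were 34.25% of all genes, and LDHB was not detected on these arrays. The median enzyme was called in 2 pairs, and the median gene of all 11600 was called in 3.

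The enzymes with the widest range were ALDOC, HK2, PGAM1, PFKL and TPI1. ALDOC, the brain form of aldolase, read 11.31 and 11.34 in SU8686, 8.44 and 8.49 in MiaPaCa2 and 8.53 and 8.55 in Panc1, compared with 10.27 and 10.22 in Panc1005, 11.20 and 11.30 in Panc0403 and 10.51 and 10.56 in Panc0504. MiaPaCa2 and Panc1 were therefore the low pair, and the resistant line SU8686 was as high as any sensitive line. HK2, the inducible hexokinase that traps glucose as its phosphate, read 8.30 and 7.70 in SU8686, 8.25 and 8.16 in MiaPaCa2 and 7.56 and 7.42 in Panc1, compared with 9.29 and 9.23 in Panc1005, 9.20 and 8.94 in Panc0403 and 9.88 and 10.01 in Panc0504. Here all 6 resistant arrays lay below all 6 sensitive arrays. PFKL, the liver form of phosphofructokinase, read 8.78 and 8.99 in SU8686, 9.86 and 10.03 in MiaPaCa2 and 10.36 and 10.39 in Panc1, compared with 8.79 and 8.53 in Panc1005, 8.94 and 8.86 in Panc0403 and 8.53 and 8.10 in Panc0504. It was high in MiaPaCa2 and Panc1 and stayed under 9 in the other lines.

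PGAM1 and TPI1 separated the 2 sensitive lines of slide 1. PGAM1, the phosphoglycerate mutase of most tissues, read 12.29 and 12.47 in Panc0403, against 11.09 and 10.76 in Panc0504, while the other lines read 12.52 to 13.28. TPI1, triose phosphate isomerase, read 13.56 and 13.74 in Panc0403, against 12.30 and 12.06 in Panc0504, while the other lines read 13.55 to 14.23. Panc0403 minus Panc0504 was 1.45 ± 0.12 (SE) for PGAM1 (adjusted p = 1.40e-05), 1.47 ± 0.13 for TPI1 (adjusted p = 2.09e-05) and 1.17 ± 0.08 for GPI, glucose phosphate isomerase (adjusted p = 3.80e-06), with n = 2 arrays each. With TXNIP (1.32 ± 0.10, adjusted p = 1.10e-05), these were the 4 members called in that pair, all higher in Panc0403, beside 7.41% of all genes called (3.85% higher and 3.56% lower). Of the 17 enzymes, 15 had a positive difference, with a median of 0.52 against -0.02 over all genes, and the hypoxia targets had 4 of 9 positive with a median of -0.55. PGK1, phosphoglycerate kinase, was also lowest in Panc0504, at 11.62 and 11.50, and read 12.27 to 13.13 on the other arrays of replicates 1 and 3. The PGAM1 probe may also read PGAM4, a close copy.

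LDHB is the lactate dehydrogenase subunit that favours the reverse step, from lactate to pyruvate. It was not detected on any of the 12 arrays of replicates 1 and 3, which read 4.65 to 4.86. On replicate 2 it was detected in every line, at 12.38 in SU8686, 11.76 in MiaPaCa2, 11.63 in Panc1, 12.85 in Panc1005, 10.60 in Panc0403 and 10.26 in Panc0504. Replicate 2 was at least 76.7-fold higher in SU8686, 52.3-fold in MiaPaCa2, 46.9-fold in Panc1, 104-fold in Panc1005, 22.7-fold in Panc0403 and 17.8-fold in Panc0504. LDHB passed the detection filter only through replicate 2, so no test of this difference is given, and its rows in the counts of calls below were fixed by that filter. Only 14 genes, 0.121% of those tested, were detected on all 6 arrays of replicate 2 and on 0 of the 12 others. LDHA, measured in the same RNA, was called different on replicate 2 of no slide.

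The promoters of both subunits are shown because the paired genes behaved so unlike each other. Each window runs from 250 bases before to 50 bases after the gene's start in RefSeq (GRCh38.p14), 5′ to 3′ on the gene's strand, and capitals mark the letters ACGTG or GCGTG on either strand, which are the core of the hypoxia response element. The LDHB window lies at chr12:21657793-21658092 on the minus strand and the LDHA window at chr11:18394313-18394612 on the plus strand.
LDHB: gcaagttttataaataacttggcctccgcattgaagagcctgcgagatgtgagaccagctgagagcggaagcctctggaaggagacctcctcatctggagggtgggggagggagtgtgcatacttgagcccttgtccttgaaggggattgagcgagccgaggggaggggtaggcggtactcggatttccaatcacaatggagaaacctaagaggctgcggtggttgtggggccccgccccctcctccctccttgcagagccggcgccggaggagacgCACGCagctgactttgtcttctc
LDHA: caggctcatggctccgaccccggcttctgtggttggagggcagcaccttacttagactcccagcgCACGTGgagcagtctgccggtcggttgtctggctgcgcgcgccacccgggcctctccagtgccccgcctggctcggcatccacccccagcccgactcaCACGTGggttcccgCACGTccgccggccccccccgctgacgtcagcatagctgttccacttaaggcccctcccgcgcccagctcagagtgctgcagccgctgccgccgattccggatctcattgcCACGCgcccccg
LDHB held 0 matches to ACGTG and 1 to GCGTG, with 14 CG pairs, the median of all promoters in the table. LDHA held 5 matches to ACGTG and 1 to GCGTG, with 29 CG pairs, where CACGTG reads as ACGTG on both strands and counts for each. Of the 35116 promoters in the table, 48.4% held either motif, 21.4% ACGTG and 36.5% GCGTG. Of the 30 members with an entry, 22 held either motif, 12 ACGTG and 15 GCGTG. Both motifs contain CG, and these members had a median of 28 CG pairs, against 14 over all promoters. A match is a run of letters and no measure of binding.

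The 3 detected regulators act on the flow through the chain. TXNIP, which lowers glucose uptake and is itself induced by glucose, read 12.82 and 12.85 in SU8686, 9.43 and 9.74 in MiaPaCa2 and 12.20 and 12.26 in Panc1, compared with 11.40 and 11.37 in Panc1005, 11.98 and 11.87 in Panc0403 and 10.61 and 10.60 in Panc0504 on replicates 1 and 3. On replicate 2 it read 12.49 in SU8686, 7.77 in MiaPaCa2 and 9.26 in Panc1, compared with 9.28 in Panc1005, 12.60 in Panc0403 and 13.25 in Panc0504. Replicates 1 and 3 agreed within 0.31 in every line, while replicate 2 minus their mean was -2.97 in Panc1 and 2.64 in Panc0504. PFKFB3 and PFKFB4 make and remove a sugar bisphosphate that activates phosphofructokinase. PFKFB3 read 10.41 to 11.24 on replicates 1 and 3 of all lines but Panc0504, which read 12.15 and 11.83. PFKFB4 read 7.55 to 9.30 there, with SU8686 highest and Panc0504 lowest.

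The listed hypoxia targets had a wider median range over the lines than the listed enzymes. Their median range of line means on replicates 1 and 3 was 2.86, against 1.32 for the enzymes, and they were called in a median of 9 of 15 line pairs, against 2. On replicate 2 the median ranges were 2.23 for the hypoxia targets and 1.39 for the enzymes. Over all genes the median range was 1.30 in both sets of arrays. The spread was uneven within the list, from 0.58 in BNIP3 and 0.99 in P4HA2, a collagen prolyl hydroxylase subunit, to 4.31 in ANGPTL4 and 5.01 in NDRG1. The widest enzyme, ALDOC at 2.86, reached only the middle of the hypoxia list. In wider lists the medians were nearly equal, at 1.61 over 29 other hypoxia-induced genes and 1.58 over 20 other glycolysis genes. Members of a list are not replicates, so these medians describe the genes listed and are not tested.

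**Figure D2:**
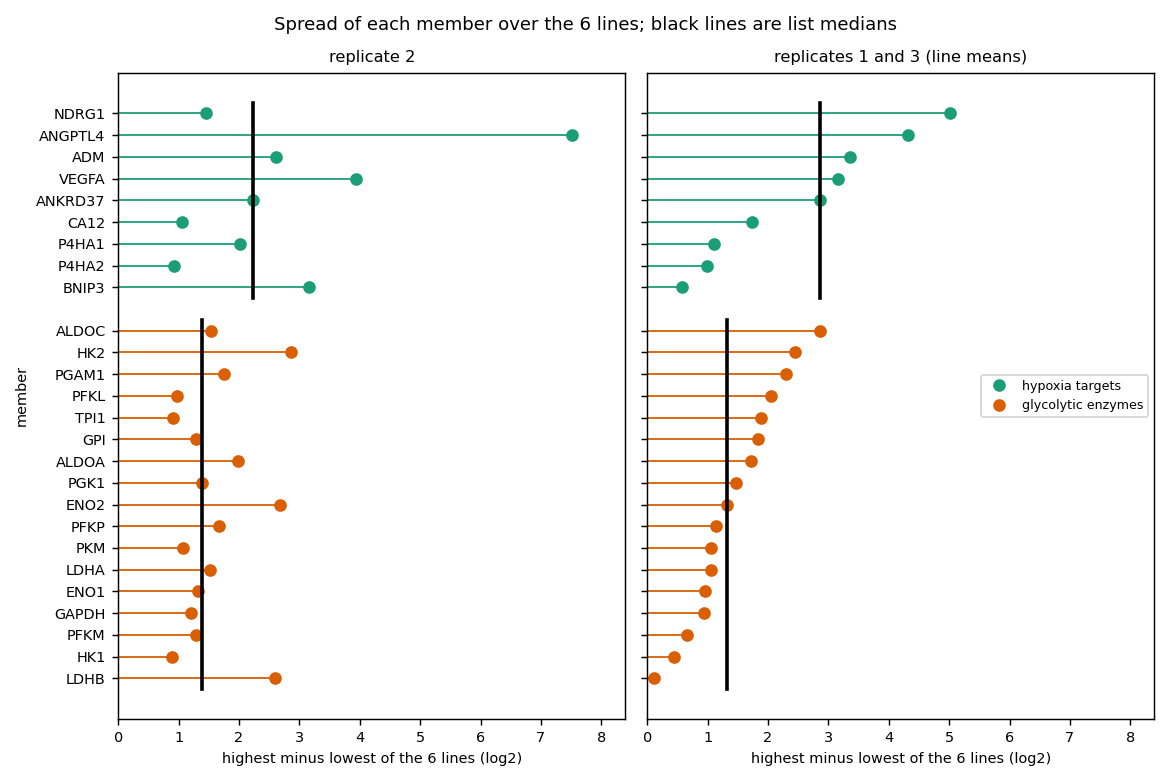
Range over the 6 lines, highest minus lowest in log2 units, of the 9 hypoxia targets (top) and the 17 glycolytic enzymes (bottom), on replicate 2 (left) and on the line means of replicates 1 and 3 (right). Black lines are list medians, at 2.23 and 1.39 on replicate 2 and at 2.86 and 1.32 on replicates 1 and 3. NDRG1 and ANGPTL4 were widest on replicates 1 and 3.

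NDRG1, a stress-induced differentiation gene, set MiaPaCa2 and Panc1 apart. It read 11.21 and 11.16 in SU8686, 6.04 and 6.31 in MiaPaCa2 and 6.69 and 6.99 in Panc1, compared with 10.34 and 10.28 in Panc1005, 10.06 and 9.90 in Panc0403 and 10.56 and 10.72 in Panc0504 on replicates 1 and 3. On replicate 2 the 6 lines lay within 1.45 of each other, at 9.06 in SU8686, 9.09 in MiaPaCa2 and 9.70 in Panc1, compared with 9.03 in Panc1005, 8.25 in Panc0403 and 8.43 in Panc0504. The low values of the 2 slide 3 lines were thus not seen on their replicate 2 arrays. ADM, a vasodilator peptide, read 12.22 and 12.16 in SU8686, 9.93 and 9.88 in MiaPaCa2 and 8.78 and 8.91 in Panc1, compared with 10.93 and 10.98 in Panc1005, 10.20 and 10.32 in Panc0403 and 10.86 and 10.76 in Panc0504. Its replicate 2 values were 11.55 in SU8686, 13.45 in MiaPaCa2 and 13.12 in Panc1, compared with 11.13 in Panc1005, 10.83 in Panc0403 and 10.85 in Panc0504. MiaPaCa2 and Panc1 moved from the bottom of the order on replicates 1 and 3 to its top on replicate 2.

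VEGFA, the main growth factor of blood vessels, read 8.76 and 8.57 in SU8686, 6.77 and 6.84 in MiaPaCa2 and 6.33 and 6.51 in Panc1, compared with 7.81 and 8.11 in Panc1005, 9.07 and 8.72 in Panc0403 and 9.53 and 9.61 in Panc0504. On replicate 2, 5 lines read 7.55 to 8.08 and Panc1005 read 11.50. ANGPTL4, an inhibitor of lipoprotein lipase, was highest where VEGFA was lowest. It read 6.41 and 6.42 in SU8686, 9.45 and 9.64 in MiaPaCa2 and 10.39 and 10.34 in Panc1, compared with 6.26 and 5.84 in Panc1005, 7.48 and 7.58 in Panc0403 and 8.32 and 8.55 in Panc0504. The replicate 2 arrays gave 5.67 in SU8686, 12.23 in MiaPaCa2 and 12.41 in Panc1, compared with 6.57 in Panc1005, 4.95 in Panc0403 and 4.90 in Panc0504. The SU8686, Panc0403 and Panc0504 values of replicate 2 were not above background, and in MiaPaCa2 and Panc1 ANGPTL4 was high on all 3 replicates. With the probes used, the hypoxia targets therefore did not rank the lines alike, since NDRG1 and VEGFA were low where ANGPTL4 was high. A second ANGPTL4 probe, detected on 8 arrays, showed little of this on replicates 1 and 3. There MiaPaCa2 and Panc1 minus Panc0403 and Panc0504 was 0.17 with it and 1.97 with the probe used.

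ANKRD37, a small ankyrin repeat protein, read 8.79 and 8.82 in SU8686 and 8.92 and 8.89 in Panc1005, the 2 lines of slide 2, and 5.83 to 7.77 on replicates 1 and 3 of the other lines. On replicate 2 it read 7.28 in SU8686, 8.55 in MiaPaCa2 and 8.54 in Panc1, compared with 6.32 in Panc1005, 8.44 in Panc0403 and 7.99 in Panc0504. The slide 2 lines were thus highest on replicates 1 and 3 and lowest on replicate 2. CA12, a membrane carbonic anhydrase that handles acid, stayed near background and was detected on 7 of 18 arrays. It read 7.05 and 7.36 in Panc0403 and 6.88 and 7.07 in Panc0504, and 5.24 to 5.89 on replicates 1 and 3 of the other lines, none of them detected. P4HA1, the other collagen prolyl hydroxylase subunit on the list, read 8.56 to 9.73 on replicates 1 and 3, and P4HA2 read 9.25 to 10.31.

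BNIP3, a mitochondrial protein that promotes mitophagy, was high on replicate 2 of every line, as LDHB was, and it was picked out after its values were seen. It read 6.50 and 6.38 in SU8686, 6.31 and 6.31 in MiaPaCa2 and 6.34 and 6.57 in Panc1, compared with 6.49 and 6.88 in Panc1005, 6.87 and 6.91 in Panc0403 and 6.62 and 6.44 in Panc0504. The 6 replicate 2 arrays read 9.19 in SU8686, 12.35 in MiaPaCa2 and 12.24 in Panc1, compared with 9.27 in Panc1005, 10.59 in Panc0403 and 10.52 in Panc0504. Every replicate 2 array lay above all 12 others. The differences were 3.85 ± 0.13 (SE) on slide 1, 2.67 ± 0.13 on slide 2 and 5.91 ± 0.13 on slide 3, with adjusted p-values of 9.54e-11, 3.16e-09 and 9.79e-13. BNIP3 was called higher on replicate 2 of all 3 slides, as were 99 genes in all (0.853%), LDHB among them. BNIP3 ranked 7 of 11600 by its smallest gap over the 6 lines.

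**Figure D3:**
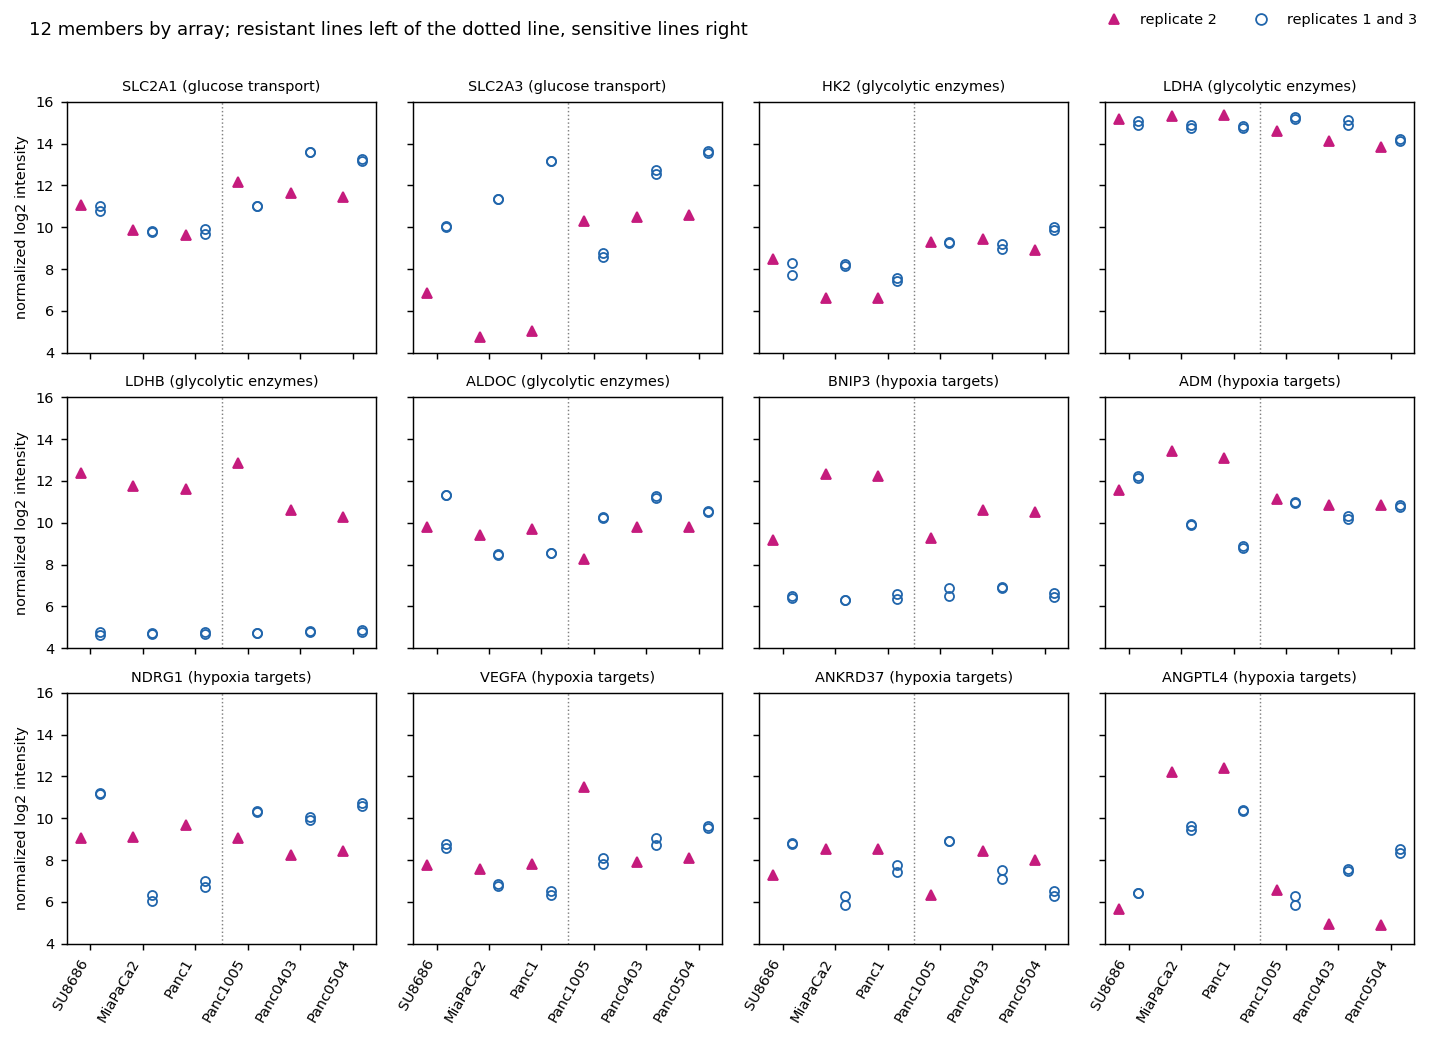
Normalized log2 intensity of 12 members on every array, with the resistant lines left of the dotted line. Pink triangles are replicate 2 and open blue circles are replicates 1 and 3. LDHB and BNIP3 lie higher on replicate 2 in all 6 lines, and SLC2A3 lies lower there in 5 of 6 lines.

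The promoters of 3 hypoxia targets that were called higher on replicate 2 of slide 3 are given in the same form as those of the lactate dehydrogenases. BNIP3 lies at chr10:131981874-131982173 on the minus strand, ADM at chr11:10304823-10305122 on the plus strand and ANKRD37 at chr4:185396591-185396890 on the plus strand.
BNIP3: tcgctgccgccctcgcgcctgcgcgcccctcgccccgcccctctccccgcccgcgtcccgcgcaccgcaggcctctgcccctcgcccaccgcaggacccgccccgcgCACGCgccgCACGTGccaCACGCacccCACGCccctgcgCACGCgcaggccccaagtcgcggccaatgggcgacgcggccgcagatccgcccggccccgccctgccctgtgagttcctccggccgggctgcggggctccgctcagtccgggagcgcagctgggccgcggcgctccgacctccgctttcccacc
ADM: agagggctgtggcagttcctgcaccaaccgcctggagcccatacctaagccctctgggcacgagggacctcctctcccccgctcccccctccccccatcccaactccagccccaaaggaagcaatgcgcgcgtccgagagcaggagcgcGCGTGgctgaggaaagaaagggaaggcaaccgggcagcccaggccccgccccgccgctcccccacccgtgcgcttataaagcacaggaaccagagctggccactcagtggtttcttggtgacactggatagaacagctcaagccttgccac
ANKRD37: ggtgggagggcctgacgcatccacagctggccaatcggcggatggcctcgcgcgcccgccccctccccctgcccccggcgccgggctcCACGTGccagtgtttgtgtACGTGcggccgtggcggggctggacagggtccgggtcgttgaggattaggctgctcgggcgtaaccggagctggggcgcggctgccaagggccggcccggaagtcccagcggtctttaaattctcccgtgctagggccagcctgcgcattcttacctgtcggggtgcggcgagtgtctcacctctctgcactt
BNIP3 held 2 matches to ACGTG and 4 to GCGTG, ADM held 0 and 1, and ANKRD37 held 3 and 0. Of the 8 hypoxia targets matched in the table, EGLN3 included, 6 held either motif, and of the 17 enzymes 12 did. On slide 3 BNIP3 differed by 5.91, ADM by 3.91 and ANKRD37 by 1.72. A relation between matches and differences was not tested.

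Replicate 2 was next set against replicates 1 and 3 of the same label, slide by slide. On slide 3 all 9 hypoxia targets had a positive difference, 5 were called higher (BNIP3, ADM, ANGPTL4, NDRG1 and ANKRD37), 0 were called lower and VEGFA (1.06), CA12 (0.61), P4HA1 (0.24) and P4HA2 (0.20) did not pass, and their median was 1.72, against -0.02 over all genes. The differences were 3.91 ± 0.19 (SE) for ADM (adjusted p = 1.67e-09), 2.89 ± 0.18 for NDRG1 (adjusted p = 1.56e-08), 2.37 ± 0.27 for ANGPTL4 (adjusted p = 6.03e-06) and 1.72 ± 0.31 for ANKRD37 (adjusted p = 3.61e-04). Among the enzymes, LDHB, ALDOA, ALDOC and PFKP were higher and HK2 was lower, with a list median of 0.13. ALDOA, the aldolase of muscle and most tumours, read 14.95 in MiaPaCa2 and 14.56 in Panc1 on replicate 2, against 12.70 to 13.04 on their replicates 1 and 3 (difference 1.87 ± 0.15, adjusted p = 2.23e-07). In all, 10 members were called higher and 3 lower on slide 3, beside 23.9% of all genes called (13% higher and 10.9% lower).

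Several of these slide 3 calls were near the threshold or depended on the probe. ALDOA differed by 1.87 with the probe used and by 0.82, under the threshold, with its second probe, detected on all 18 arrays. HK2 fell by 1.23 with the probe used and had 0.20 with its second probe, and its call was lost with the mean of all detected probes (-0.52, adjusted p = 0.142) and without replicate 2 of MiaPaCa2 (-0.89, adjusted p = 0.0765). ANKRD37 without replicate 2 of MiaPaCa2 was 0.94 and no longer called, and ALDOC and PFKP without replicate 2 of Panc1 were 0.97 and 0.85. The epithelial markers moved with this comparison. Levels of the 6 epithelial markers were taken relative to each gene's mean over replicates 1 and 3 of all lines. Their median was -0.19 in MiaPaCa2 and -0.35 in Panc1 on replicate 2, against -3.96 to -3.64 on replicates 1 and 3 of these lines. EPCAM read 9.13 in MiaPaCa2 and 9.10 in Panc1 on replicate 2 and was not detected on replicates 1 and 3 of either line. The part of this shift in the hypoxia targets was not tested.

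Slide 1 went the other way for several of the same genes. There 4 members were called higher and 10 lower, beside 18.7% of all genes (9.11% higher and 9.59% lower), and the median was -0.54 over the hypoxia targets and -0.36 over the enzymes. ANGPTL4 was called lower (adjusted p = 8.38e-07), with replicate 2 not above background, and NDRG1 fell by 1.97 (difference -1.97 ± 0.18, adjusted p = 1.11e-06). Replicate 2 of ANGPTL4 was at least 2.85-fold lower in Panc0403 and at least 4.91-fold lower in Panc0504. Its second probe, detected on 8 arrays, differed by only -0.43 on this slide. ENO2, the neuronal enolase, fell by 2.33 (SE 0.22, adjusted p = 1.35e-06) and PFKFB3 by 2.12 (SE 0.22, adjusted p = 4.35e-06), and SLC2A1 fell by 1.88 (SE 0.18, adjusted p = 1.51e-06). SLC2A3, PFKP, ALDOC, PKM, which makes pyruvate, and CA12 were also lower, by 1.05 to 2.59. TXNIP, ANKRD37, BNIP3 and LDHB were the 4 higher members. Without replicate 2 of Panc0504, SLC2A3 (-2.14), TXNIP (0.67) and ANKRD37 (1.13) lost their calls, and without replicate 2 of Panc0403 ALDOC (-0.72) and PKM (-0.86) did. CA12 was not called with no background correction (-0.55), an offset of 50 (-0.77) or the authors' log2 values (-0.52).

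On slide 2, replicate 2 had 2 members called higher, LDHB and BNIP3, and 9 lower, beside 26% of all genes (13.7% higher and 12.4% lower). The 9 were PFKM, the muscle phosphofructokinase (-1.68 ± 0.12), ALDOC (-1.75 ± 0.15), PGK1 (-1.11 ± 0.16), PGAM1 (-1.62 ± 0.18), ENO2 (-1.33 ± 0.22), TXNIP (-1.23 ± 0.41), NDRG1 (-1.70 ± 0.18), ANKRD37 (-2.06 ± 0.31) and P4HA1 (-1.39 ± 0.13), each a difference and its SE. Their adjusted p-values ran from 1.17e-07 for PFKM to 0.0207 for TXNIP. Without replicate 2 of Panc1005, ENO2 (-0.86) and TXNIP (-0.35) lost their calls. The hypoxia median on this slide was -0.11 and turned to 0.18 without replicate 2 of SU8686 and to -0.75 without that of Panc1005. The 6 cell cycle markers were low on the same 2 arrays, relative to each gene's mean over the 12 arrays of replicates 1 and 3. Their median was -2.21 in SU8686 and -0.94 in Panc1005, against 0.07 to 0.68 on replicates 1 and 3 of these lines. The part of that in these calls was not tested.

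**Figure D4:**
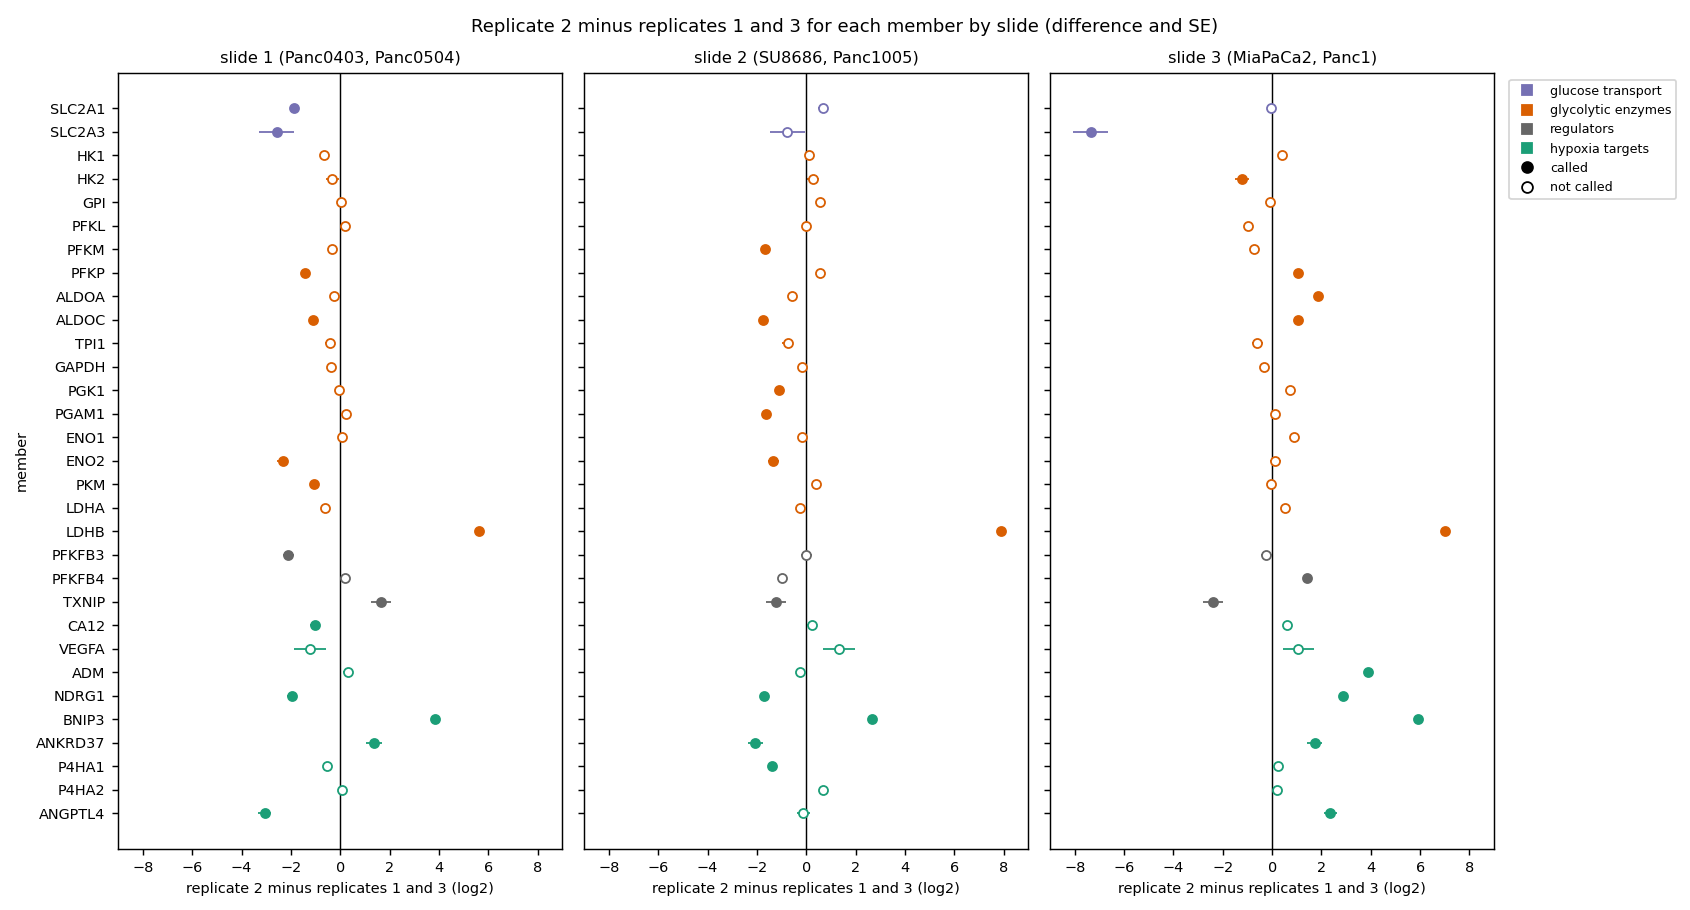
Difference between replicate 2 and replicates 1 and 3 (log2, with SE) for the 31 detected members on slides 1, 2 and 3. Filled points passed an adjusted p under 0.05 and a difference of at least 1. LDHB and BNIP3 were higher on all slides, and the hypoxia targets NDRG1 and ANGPTL4 were lower on slide 1 and higher on slide 3.

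The difference between slides was tested itself. Between slide 3 and slide 1 the replicate 2 difference was called larger for 16 members and smaller for 3, beside 37.6% of all genes (19.9% larger and 17.7% smaller). All 9 hypoxia targets had the larger value on slide 3, 6 of them called. ANGPTL4 was called with a fitted contrast of 5.43 that rests on values not above background on replicate 2 of slide 1, where its fall was at least 3.74-fold. Its second probe differed by 1.40 on slide 3 and by -0.43 on slide 1. The contrast was 4.86 ± 0.25 (SE) for NDRG1 (adjusted p = 3.72e-09) and 3.60 ± 0.27 for ADM (adjusted p = 1.48e-07). TXNIP went the opposite way, at -4.05 ± 0.59 (adjusted p = 5.45e-05), as did SLC2A3, called at a fitted -4.77 with replicate 2 of slide 3 not above background (at least 76.3-fold lower there). Between slide 3 and slide 2 it was called larger for 13 members and smaller for 2, beside 35.6% of all genes (18% and 17.6%), with 6 of 9 hypoxia targets among the larger. Between slide 2 and slide 1 it was called larger for 9 and smaller for 7, beside 39.2% (20.4% and 18.8%). Slide, line and response cannot be told apart between slides 3 and 1, because slide 3 held resistant lines and slide 1 held sensitive ones.

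Within a slide, the count of members apart by 1 or more was small on slides 1 and 3 of replicate 2, as it was over all genes. Between Panc0403 and Panc0504, 0 of 31 members differed by 1 or more on replicate 2 and 4 did on replicates 1 and 3. Between MiaPaCa2 and Panc1, 1 did on replicate 2 and 4 on replicates 1 and 3. Between SU8686 and Panc1005, 7 did on replicate 2 and 5 on replicates 1 and 3. Over all genes the shares were 0.733% on replicate 2 and 7.41% on replicates 1 and 3 of slide 1, 19.7% and 4.85% on slide 2, and 0.897% and 2.71% on slide 3.

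Within slides, replicates 1 and 3 gave a pair of lines each. SU8686 against Panc1005 is the resistant and sensitive pair of slide 2, and 5 members were called there, 4 higher and 1 lower in SU8686, beside 4.84% of all genes (3.69% higher and 1.16% lower). TXNIP was higher in SU8686 by 1.45 ± 0.10 (SE), SLC2A3 by 1.34 ± 0.10, ADM by 1.24 ± 0.09 and ALDOC by 1.08 ± 0.08, each with an adjusted p of 1.03e-05 or less, and HK2 was lower (-1.25 ± 0.17, adjusted p = 4.65e-04). Without replicate 3 of SU8686 the HK2 difference was -0.96 and no longer called, and with median scaling in place of quantile normalization ALDOC was 0.99. The same pair on replicate 2 gave a difference of -3.42 for SLC2A3, opposite in sign, and 3.20 for TXNIP, 0.41 for ADM, 1.50007 for ALDOC and -0.78 for HK2. MiaPaCa2 against Panc1 had 4 members called beside 2.69% of all genes (1.22% higher and 1.47% lower), with ADM higher (1.06 ± 0.09) and SLC2A3 (-1.85 ± 0.10), TXNIP (-2.64 ± 0.10) and ANKRD37 (-1.56 ± 0.18) lower. With no background correction ADM (0.93) and ANKRD37 (-0.88) were under the threshold of 1.

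MiaPaCa2 and Panc1 against Panc0403 and Panc0504, resistant lines of slide 3 against sensitive lines of slide 1, had 11 members called beside 33.8% of all genes (16.8% higher and 17% lower). GPI (1.24 ± 0.05), PFKL (1.55 ± 0.11), PGAM1 (1.09 ± 0.09) and ANGPTL4 (1.97 ± 0.10) were higher. The second ANGPTL4 probe, detected on 8 arrays, gave only 0.17. SLC2A1 (-3.61 ± 0.07), HK2 (-1.66 ± 0.12), ALDOC (-2.39 ± 0.05), CA12 (-1.32 ± 0.14), VEGFA (-2.62 ± 0.10), ADM (-1.16 ± 0.06) and NDRG1 (-3.80 ± 0.09) were lower, all as difference and SE with adjusted p-values from 2.35e-11 to 7.28e-06. Of the hypoxia targets 1 was thus higher and 4 lower, and of the enzymes 3 were higher and 2 lower. The epithelial markers KRT7, EPCAM and CDH1 were not detected in MiaPaCa2 and Panc1 and read 12.50 to 14.18 as line means in Panc0403 and Panc0504. CA12 was not detected in MiaPaCa2 and Panc1 (at least 2.04-fold lower) and was under the threshold with no background correction (-0.68), and with replicate 2 included ADM was 0.041.

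The comparison of resistant with sensitive lines takes a line as the replicate, with 3 against 3. On replicates 1 and 3 limma called 0 of 11600 genes (0%), with 1796 genes (15.5%) and 4 members under an unadjusted p of 0.05. SLC2A1 averaged 10.17 ± 0.63 over the resistant and 12.62 ± 1.40 over the sensitive lines (SD, n = 3 each), a difference of -2.45 ± 0.73 (SE, adjusted p = 0.316). HK2 averaged 7.90 ± 0.37 over the resistant and 9.42 ± 0.46 over the sensitive lines, a difference of -1.52 ± 0.34 (adjusted p = 0.316), and -0.69 with its second probe. Neither gene overlapped between the groups, as held for 5 members lower in resistant lines (8.02% of all genes), with HK1, BNIP3 and LDHB as the others and LDHB not detected on any of these arrays, and for 1 higher (9.84%), P4HA1 at 0.68 ± 0.26 (adjusted p = 0.316). Within slide 2, SU8686 minus Panc1005 was -0.12 for SLC2A1 and -1.25 for HK2, and these are also the values with slide as a block, since slide 2 alone held both groups.

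The other members did not separate the groups on replicates 1 and 3. NDRG1 averaged 8.07 ± 2.72 over the resistant and 10.31 ± 0.33 over the sensitive lines (difference -2.24 ± 1.27, adjusted p = 0.392), and VEGFA 7.30 ± 1.20 over the resistant and 8.81 ± 0.81 over the sensitive lines (difference -1.52 ± 0.69, adjusted p = 0.327). ALDOC had a difference of -1.23 ± 0.81, PFKL of 1.11 ± 0.43 and ANGPTL4 of 1.44 ± 1.12, or 0.21 with the second ANGPTL4 probe. With slide as a block, ALDOC (1.08), NDRG1 (0.88) and VEGFA (0.70) turned positive, PFKL was 0.23 and ANGPTL4 0.36. Without SU8686 limma called 1627 genes and 4 members, namely PFKL (1.53), ALDOC (-2.17), NDRG1 (-3.80) and VEGFA (-2.20). Without Panc1005 it called 554 genes and 2 members, with SLC2A1 at -3.25 (adjusted p = 0.0232), and without any other single line it called 0 genes. The median difference was 0.06 over the enzymes (9 of 17 positive), -0.30 over the hypoxia targets (3 of 9 positive) and 0.04 over all genes.

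On replicate 2, limma called 22 of 11600 genes between resistant and sensitive lines (0.0776% higher and 0.112% lower, 0.19% in all), none of them a member, and 11 members had an unadjusted p under 0.05, beside 17.1% of all genes. SLC2A3 was lower on every resistant array, with a fitted difference of -4.89 (adjusted p = 0.0588), but its values in MiaPaCa2 and Panc1 were not above background, so that difference is no measured size. Against the lowest sensitive line, Panc1005, SLC2A3 was at least 20.8-fold lower in MiaPaCa2 and at least 18.3-fold lower in Panc1. LDHA averaged 15.29 ± 0.11 over the resistant and 14.18 ± 0.38 over the sensitive lines (SD, n = 3 each), a difference of 1.10 ± 0.27 (adjusted p = 0.172). ENO2 had 1.80 ± 0.42 (adjusted p = 0.169), ALDOA 1.22 ± 0.33 (adjusted p = 0.185), ADM 1.77 ± 0.52 (adjusted p = 0.207), SLC2A1 -1.55 ± 0.44 (adjusted p = 0.199) and HK2 -1.97 ± 0.56 (adjusted p = 0.198). The second HK2 probe, detected on 11 arrays, gave 0.34, opposite in sign. Differences were positive in 16 of 17 enzymes and 8 of 9 hypoxia targets, with medians of 0.55 and 0.71, against 52.7% of all genes and a median of 0.04. Among these enzymes TPI1 had 0.45 with the probe used and -0.22 with its second probe. Groups did not overlap for 9 members higher in resistant lines (13.1% of all genes) and 4 lower (9.6%).

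Replicate 2 within slide 2 was smaller for the lists, with a median SU8686 minus Panc1005 of 0.07 over the enzymes and 0.15 over the hypoxia targets, against 0.02 over all genes. ANGPTL4 had a fitted -0.91 there (at least 1.49-fold lower in SU8686, which was not above background), while SLC2A3 stood at -3.42, SLC2A1 at -1.10, ENO2 at 1.11, LDHA at 0.57, ALDOA at 0.40, ADM at 0.41 and HK2 at -0.78. With slide as a block the same values came with 2994 genes and 11 members called, among them SLC2A3, SLC2A1, ENO2 and ANGPTL4, and the spread in that fit came only from the near-alike pairs of slides 1 and 3. Leaving out SU8686 gave 2134 genes and 11 members called, leaving out Panc1005 gave 653 genes and 3 members, and leaving out any other line gave 0. The difference between the replicate 2 response and that of replicates 1 and 3 was called for 1 gene of 11600 (0.00862%) and for no member, with a lowest adjusted p of 0.317 among the members.

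**Figure D5:**
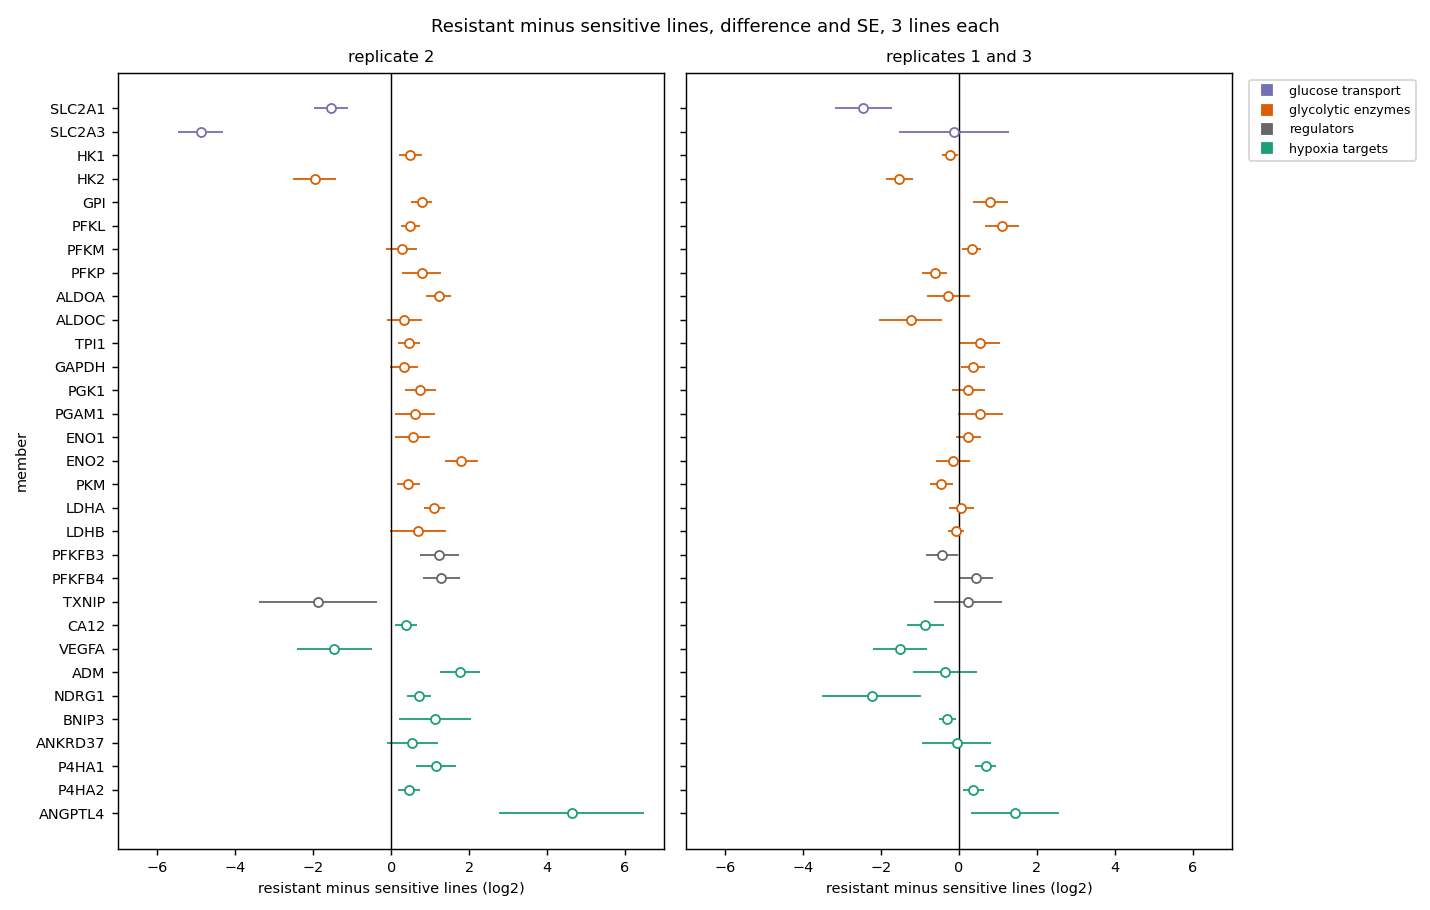
Difference between resistant and sensitive lines (log2, with SE, 3 lines each) for the 31 detected members on replicate 2 (left) and on replicates 1 and 3 (right). No member passed an adjusted p under 0.05 in either set. With the probes used, SLC2A1 and HK2 lay below 0 in both, while the second HK2 probe gave 0.34 on replicate 2. SLC2A3 lay at a fitted -4.89 on replicate 2, where it was not above background in MiaPaCa2 and Panc1.

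The genes that sense oxygen were measured on the same arrays. Of 8 detected genes of the oxygen-sensing machinery, EPAS1, one of the hypoxia-inducible factors, moved furthest. As means of replicates 1 and 3 it read 10.53 in SU8686, against 9.44 in Panc1005, 10.47 in Panc0403 and 10.9998 in Panc0504, and it was not detected in MiaPaCa2 and Panc1. On replicate 2 it read 10.53 in SU8686, 10.84 in MiaPaCa2 and 11.49 in Panc1, compared with 11.94 in Panc1005, 6.57 in Panc0403 and 7.29 in Panc0504. EPAS1 was thus detected on replicate 2 of all lines. It was called higher there on slide 3 (adjusted p = 7.50e-09), where replicates 1 and 3 were not above background, and on slide 2 (difference 1.25 ± 0.37, adjusted p = 0.00974), where SU8686 read 10.53 on both, and lower on slide 1 (difference -3.81 ± 0.37, adjusted p = 2.02e-06). HIF1A read 9.29 to 10.37 as line means of replicates 1 and 3, and on replicate 2 it fell by 1.70 on slide 1 (adjusted p = 2.52e-08). VHL, which marks the factors for degradation, and EGLN1, the main oxygen-sensing hydroxylase, were called in 0 of 15 line pairs. ARNT, the common partner, was close to background, with line means of replicates 1 and 3 from 5.32 to 6.51.

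A further list of 29 detected hypoxia-induced genes gave 8 called higher and 3 lower on replicate 2 of slide 3 (beside 13% and 10.9% of all genes), 5 and 3 on slide 1 (beside 9.11% and 9.59%) and 3 and 4 on slide 2 (beside 13.7% and 12.4%). Their medians were 0.25, -0.16 and -0.04. In this list STC2 and PGF were detected on 3 replicate 2 arrays and 0 of the 12 others, and TMEM45A on 6 and 1. These genes passed the detection filter only through replicate 2, so their rows in the counts were shaped by that filter. The slide 3 calls were led by PLOD2, a collagen lysyl hydroxylase, which read 13.70 in MiaPaCa2 and 13.60 in Panc1 on replicate 2, against means of 6.35 and 5.57 on replicates 1 and 3, where Panc1 was not detected. STC2, a secreted glycoprotein, read 9.95 in MiaPaCa2 and 10.23 in Panc1 on replicate 2 and was not detected on replicates 1 and 3 of any line. BHLHE41, a circadian repressor, read 8.45 in MiaPaCa2 and 8.07 in Panc1 on replicate 2 and was not detected on their replicates 1 and 3. Between resistant and sensitive lines, 0 of these 29 genes were called on replicates 1 and 3 and 0 on replicate 2.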

How the data were processed

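RNA of 6 cell lines, 3 replicates each, was read on 18 Illumina Human HT-12 v4 arrays. The deposited table gives the bead intensity of 48107 probes, neither background-subtracted nor normalized as far as its values show, and a detection p-value per probe and array, per the file headers. The authors' processed table holds log2 values of 47323 probes, quantile normalized in separate sets of arrays as its columns show, and was used only as an alternative. The image software is not given in the sources used here.

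Intensities were background-corrected by normexp with negative controls inferred from the detection p-values, given an offset of 16, quantile normalized and put on the log2 scale (neqc, limma 3.58.1, R 4.3.3). Of the probes, 30113 had 1 gene symbol, and of the 15405 such probes detected (p under 0.01 on at least 3 arrays) the one with the highest mean stood for its gene, which left 11600 genes. limma's moderated test was fitted on all of them with Benjamini-Hochberg adjustment, after a test of the scripts on simulated data. Response was tested on line means (replicates 1 and 3) and on single arrays (replicate 2) at an adjusted p under 0.05. Line contrasts on replicates 1 and 3 and replicate 2 against replicates 1 and 3, with a term per line and slide, also needed a difference of at least 1. P-values measure the spread between these arrays or lines.

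Members, lists and tests were chosen with earlier results of these data known. Values are given array by array for the 5 enzymes and 5 hypoxia targets of widest line range on replicates 1 and 3 and for SLC2A1, SLC2A3, LDHA, LDHB, GAPDH, PGK1, CA12, TXNIP, PFKFB3 and PFKFB4, and other genes by their line means or differences. BNIP3, picked out after its values were seen, is also given array by array. From each further pathway list, genes of largest difference were named, up to 3 a comparison. Alternatives changed the background correction, scaling, filter, probe choice, replicates, slide block or single arrays.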

Additional observations from a re-analysis of the deposited data

Results flagged for a closer look

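The results listed here differed between slides by a test of the difference itself. For 19 members the difference between replicate 2 and replicates 1 and 3 was called larger or smaller on slide 3 (MiaPaCa2 and Panc1) than on slide 1 (Panc0403 and Panc0504), with a limma adjusted p under 0.05 and a contrast of at least 1, beside 37.6% of all genes called. The contrast, slide 3 minus slide 1 on the log2 scale, was positive for 6 hypoxia targets, namely ANGPTL4 (5.43), NDRG1 (4.86), ADM (3.60), VEGFA (2.30), BNIP3 (2.07) and CA12 (1.66). Among the enzymes it was positive for ENO2 (2.46), PFKP (2.46), ALDOC (2.15), ALDOA (2.12), LDHB (1.37), LDHA (1.16) and HK1 (1.05) and negative for PFKL (-1.17). HK1 was near the threshold and depended on the probe. It differed by 0.39 on slide 3 and -0.66 on slide 1 with the probe used, and by 0.21 and -0.18 with its second probe, detected on 16 arrays. The glucose transporters split, with SLC2A1 at 1.84 and SLC2A3 at -4.77. Of the regulators, PFKFB3 (1.88) and PFKFB4 (1.23) were positive and TXNIP was negative (-4.05). The sign of each single-slide difference is not given by the contrast, since LDHB and BNIP3 were higher on replicate 2 of both slides. Values of ANGPTL4 on replicate 2 of slide 1, of SLC2A3 on replicate 2 of slide 3, of CA12 on replicates 1 and 3 of slide 3 and of LDHB on replicates 1 and 3 of both were not above background, so these 4 contrasts are fitted values and no measured size.

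The same contrast was called for 16 members between slide 2 and slide 1 (39.2% of all genes) and for 15 members between slide 3 and slide 2 (35.6%). The epithelial markers moved on replicate 2 of slide 3 and the cell cycle markers on replicate 2 of slide 2, with the values given beside those results, and their part in these contrasts was not tested. The 2 lines of a slide were nearly alike on replicate 2 of slides 1 and 3, so each contrast rests on few separate profiles.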

How the results depend on the processing

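The precision is limited by 2 arrays a line on replicates 1 and 3, by 1 on replicate 2 and by 3 lines a response group, and SLC2A3, LDHB, CA12 and ANGPTL4 lay near background on some arrays. Of the recomputed tests of single members, 1246 kept their direction and their side of the threshold, 18 passed it newly, 55 no longer passed it and 6 changed sign. The 6 were SU8686 minus Panc1005 for SLC2A3 (-0.24 with all 3 replicates), MiaPaCa2 and Panc1 minus Panc0403 and Panc0504 for ADM (0.041 with all 3 replicates) and, with slide as a block, the response on replicates 1 and 3 of ALDOC (1.08), NDRG1 (0.88) and VEGFA (0.70) and the response on replicate 2 of ANGPTL4 (-0.91). The cause was not tested.

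The 22 genes called for response on replicate 2 became 4 with no background correction, 3 with an offset of 50, 1 with median scaling, 7 with the authors' log2 values, 1 with detection on at least 9 arrays and 2994, with 11 members, with slide as a block. For response on replicates 1 and 3, using every array, a random effect of line and a replicate block gave 132 genes and 0 members, where 0 genes were called otherwise. Leaving out 1 line or replicate gave 0 to 1627 genes and 0 to 4 members on replicates 1 and 3, and 0 to 2134 genes and 0 to 11 members on replicate 2.

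Of the line pairs, SU8686 minus Panc1005 (562 genes) gave 251 with no background correction, 363 with an offset of 50, 235 with the authors' log2 values and 57, with 0 members, with all 3 replicates. MiaPaCa2 minus Panc1 (312 genes) gave 144 and 139, each with 2 members, with no background correction and with the authors' values, and 0 genes and members with all 3 replicates. Panc0403 minus Panc0504 (860 genes) gave 433, 431 and 1, with 0 members in the last, in the same order, and 4 to 8 members without 1 array, the 8 without replicate 1 of Panc0403. Replicates 1 and 3 carried no pairing across lines, since 1 of 15 correlations of their deviations passed 0.1 (from -0.10 to 0.11), and a replicate block left the 562, 312, 860 and 3925 genes called in the 4 line contrasts at the same counts. Without replicate 1 or replicate 3 as a whole, no residual spread remained, so single arrays were left out instead, an alternative chosen after seeing the data.

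Replicate 2 of slide 1 (2170 genes called) gave 1423 with no background correction and 1406 with the authors' values, and slide 2 (3020) gave 1959 with the authors' values. The slide 1 median of the enzymes (-0.36) was -0.31 with no background correction, -0.45 with median scaling and -0.30 with the authors' values, and that of the hypoxia targets (-0.54) was -0.43, -0.63 and -0.42 under the same settings, -0.49 with an offset of 50, -0.24 with detection on at least 9 arrays and -0.34 with no detection filter. The slide 2 median of the enzymes (-0.16) was -0.33 with median scaling and -0.20 both with detection on at least 9 arrays and with the mean of all detected probes, which also moved the slide 3 median of the enzymes to 0.29. Leaving out 1 array or replicate, the enzyme medians ran from -0.42 to -0.35 on slide 1, from -0.28 to -0.14 on slide 2 and from 0.13 to 0.34 on slide 3. For response on replicates 1 and 3, all 3 replicates gave 0.34 over the enzymes and 0.18 over the hypoxia targets, slide as a block gave 0.35 over the hypoxia targets, and leaving out 1 line gave -0.72 to -0.11 over the hypoxia targets and, with a change of sign, -0.16 to 0.27 over the enzymes. For response on replicate 2, slide as a block gave 0.070 over the enzymes and 0.15 over the hypoxia targets.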

Other observations

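Other genes of glucose use, outside the 36 listed ones, were read on the same arrays. Of 20 detected further glycolysis and glucose transport genes, 1 was called higher and 7 lower on replicate 2 of slide 3, 4 and 2 on slide 2, and 1 and 4 on slide 1, beside 23.9%, 26% and 18.7% of all genes called in either direction. SLC2A10, a glucose transporter of the reticulum and vessel wall, read 12.50 in SU8686 and 11.94 in Panc1005 on replicate 2, against means of 6.23 and 6.001 on their replicates 1 and 3, where it was detected on 1 of 4 arrays. In Panc0403 and Panc0504 the order was the opposite, with 7.91 and 8.33 on replicate 2, against 11.68 and 11.98 on replicates 1 and 3. SLC2A8, an intracellular transporter, read 11.33 in MiaPaCa2 and 11.13 in Panc1 on replicate 2, against means of 7.17 and 6.15 on replicates 1 and 3 (limma adjusted p = 8.85e-07). On replicate 2 HKDC1, a hexokinase-like gene, was detected at 7.85 in SU8686 and not detected in MiaPaCa2 and Panc1, against 10.48 to 10.60 in the sensitive lines, and the difference was not called (adjusted p = 0.110).

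A list of 14 detected genes covered pyruvate entry into the mitochondrion and its use there. On replicates 1 and 3, 3 were called higher and 1 lower in MiaPaCa2 and Panc1 against Panc0403 and Panc0504. Of all genes, 16.8% were called higher and 17% lower. PC, pyruvate carboxylase, led with 2.29 ± 0.11 (adjusted p = 1.31e-08), followed by PDHX at 1.88 ± 0.08 and PDHA1 at 1.70 ± 0.11, both of the pyruvate dehydrogenase complex. PDHX and PDHA1 were lower on replicate 2 of slide 3, by -1.62 ± 0.11 and -1.54 ± 0.14. FBP1, the gluconeogenic fructose bisphosphatase, read 9.22 in SU8686 and 9.61 in Panc1005 as means of replicates 1 and 3, was detected at 6.67 in Panc0403 and 6.59 in Panc0504, and was not detected in MiaPaCa2 and Panc1. On replicate 2 it read 9.38 in SU8686 and 6.88 in Panc1005 and was not detected in the other lines.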
